A study of Mus musculus with 18 samples.

Results

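The clustered protocadherins were the 58 genes of a table of 25239 whose symbols begin with Pcdha, Pcdhb or Pcdhg, followed by a number or by the letter and number of their type. They form 3 neighbouring clusters on the plus strand of mouse chromosome 18 (mm10): the alpha cluster with 14 genes (chr18:36930184-37187661), the beta cluster with 22 (chr18:37264938-37524479) and the gamma cluster with 22 (chr18:37661793-37841873). The last alpha genes, Pcdhac1 and Pcdhac2, and the last gamma genes, Pcdhgc3, Pcdhgc4 and Pcdhgc5, are the C-type genes. The other gamma genes are of an A type (12 genes) and a B type (7 genes).

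Clustered protocadherins are cell-surface proteins of the cadherin superfamily that are best known from neurons. Each gene has its own promoter and its own large first exon, which encodes the extracellular part of the protein, and in the alpha and gamma clusters these variable exons are spliced to constant exons that all genes of the cluster share, while beta genes have no such constant exons. A neuron is known to switch on a small, largely random choice of alpha, beta, gamma A and gamma B promoters, which are methylated when silent and use the DNA-looping protein CTCF when active, whereas C-type promoters are used more uniformly. The proteins bind identical copies on other cells, which lets a neurite recognise and avoid its own branches.

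RNA was sequenced from 18 libraries of mouse E14Tg2a cells, an embryonic stem cell line, 2 libraries for each of 9 groups. Wild-type cells and cells lacking Tet1, Tet2 and Tet3 (TKO), which encode the enzymes that oxidise 5-methylcytosine in DNA, were first taken from 2i/LIF culture to epiblast-like cells with Activin A and Fgf (EpiLCs, day 0). The EpiLCs then grew as floating aggregates in GK15 medium, with or without BMP4, BMP8a, SCF, LIF and EGF, the cytokines that direct them to primordial germ cell-like cells (PGCLCs). The wild-type groups were EpiLCs, aggregates without cytokines of day 2 and of day 6, and day 6 cells grown with cytokines. The TKO groups were EpiLCs and, for each of day 2 and day 6, aggregates grown with and without cytokines. Wild-type cells with cytokines at day 2 and embryonic stem cells were not analysed here. TKO cells were 1 clone in which the 3 reading frames had been cut out with Cas9, so that genotype and clone cannot be told apart. The wild-type cells with cytokines had been sorted for SSEA1 and CD61 according to the study's legends, although their labels call them aggregates, and sorting cannot be told apart from treatment or genotype in comparisons with them. The study calls its replicates biological, and the labels give only a replicate number, so the p-values measure the spread between these libraries.

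The deposited values were counts of fragments per gene, with 11286050 to 41257861 counts per library. Ribosomal RNA from Rn45s took 16.2% to 47.6% of them, and the 58 protocadherins together took 0.00124% to 0.0635%. Levels below are normalised counts, counts divided by the size factors of DESeq2. Tet3 ran from 54.6 to 252 normalised counts in TKO and from 171 to 5849 in wild-type libraries, Tet1 from 504 to 1937 and from 595 to 12106, and Tet2 from 31.7 to 405 and from 125 to 4812. These ranges overlapped, and since exons outside the excised reading frames are counted too, the counts check the labels only in part. Fragments that overlapped several genes or matched several places had not been counted, so alpha and gamma values come from the variable exons, and reads of beta genes with closely similar neighbours are uncertain. The counting did not use the strand. Fewer cells that use a gene and less RNA of it per cell cannot be told apart in bulk RNA.

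Of the 58 genes, 50 had enough counts to be tested (8 of 14 alpha, 20 of 22 beta and 22 of 22 gamma). Of these, 26 passed solely through the day 6 wild-type libraries without cytokines, so that they had to differ from the other groups and their number gives no support to such a difference. The 8 genes left out were Pcdha1, Pcdha4, Pcdha6, Pcdha7, Pcdha8, Pcdhac1, Pcdhb1 and Pcdhb9. Over 18 libraries, Pcdha4 and Pcdha7 had 0 counts, Pcdha6 had 1, Pcdhb1 had 21, Pcdha1 had 49, Pcdhac1 had 62, Pcdha8 had 70 and Pcdhb9 had 86. "Higher" and "lower" below stand for calls at 0.05 of the quasi-likelihood test of edgeR, fitted to all 18 libraries, after Benjamini-Hochberg adjustment of p over the 16582 genes tested. SE is the standard error of a log2 fold change. Where libraries of called genes are said not to overlap, the share over all genes was not determined.

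The question asked first was how the clusters change as wild-type cells leave the EpiLC state without cytokines. All 3 clusters were low in EpiLCs and reached their highest level at day 6, by far the largest step being that of the beta cluster. Summed over its 22 genes, beta had 19.3 and 6.67 normalised counts in wild-type EpiLCs, 89.7 and 48.9 at day 2, and 4747 and 1512 at day 6. The alpha cluster had 4.82 and 15.6 in EpiLCs, 47.8 and 25.6 at day 2, and 617 and 188 at day 6. The gamma cluster had 308 and 357 in EpiLCs, 2118 and 1328 at day 2, and 4389 and 2368 at day 6. The 3 time points did not overlap in any cluster. The mean sum at day 6 was 39.5-fold that of EpiLCs for alpha, 241-fold for beta and 10.2-fold for gamma. The day 2 sums were 3.60-fold, 5.34-fold and 5.18-fold those of EpiLCs.

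**Figure D1:**
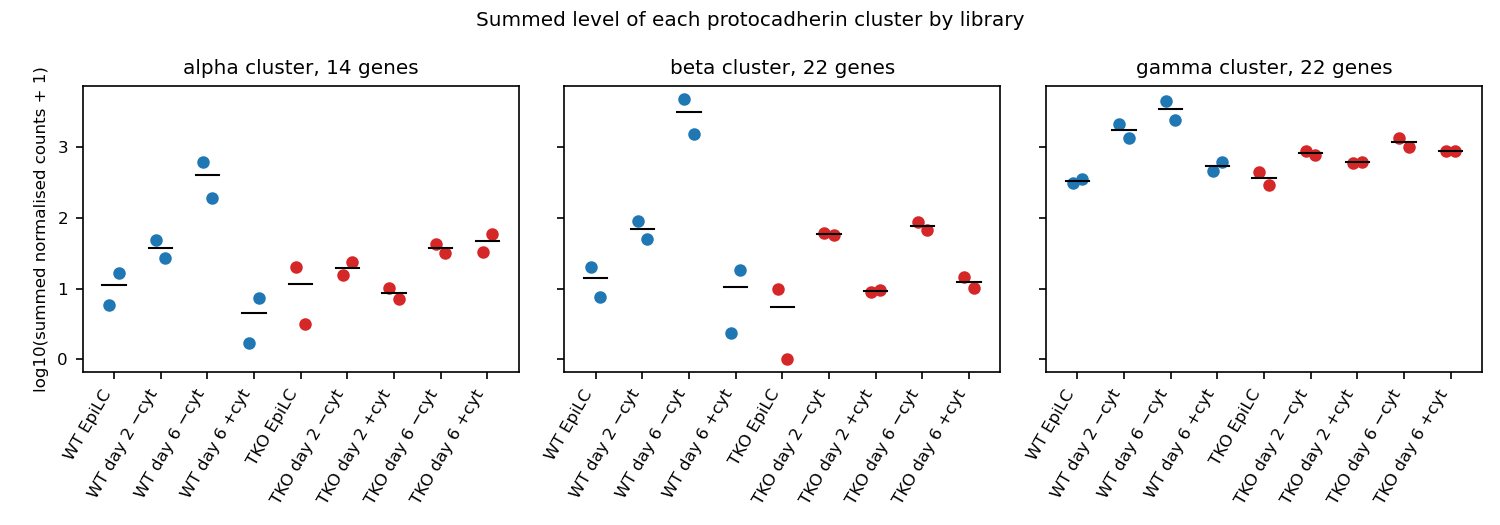
Summed normalised counts of the alpha, beta and gamma clusters in each of the 18 libraries, as log10 of the sum plus 1, for wild-type (WT, blue) and TKO (red) groups with (+cyt) and without (−cyt) cytokines. Each point is a library and each bar the mean normalised count of a group. The day 6 wild-type libraries without cytokines, at 4747 and 1512 for beta, stand above all others in every cluster, and the beta sums without cytokines lie above those with cytokines in both genotypes.

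Day 6 wild-type aggregates without cytokines held most of the alpha and beta RNA of the whole series. The 2 libraries had 11778 of the 12263 beta counts (96.0%), 1523 of the 1847 alpha counts (82.5%) and 11726 of the 24544 gamma counts (47.8%). In the 16 other libraries the highest count of any alpha or beta gene was 40, for Pcdhac2, and 27 for the next, Pcdhb22. In both day 6 libraries 20 of 22 beta genes, 8 of 14 alpha genes and 12 of 22 gamma genes had more normalised counts than in any of the 16 others. The share of all genes that did so was not determined, so these counts describe the protocadherins alone.

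Against wild-type EpiLCs, 47 of the 58 clustered protocadherins were higher and 0 lower in day 6 wild-type aggregates without cytokines, when 31.7% of all genes tested were higher and 29% lower. They were 20 of the 22 beta genes, 20 of the 22 gamma genes and 7 of the 14 alpha genes. The genes tested include the 26 that passed the filter solely through these day 6 libraries, so the number called gives no support to a difference. The libraries of the groups did not overlap for any of the 47. Pcdhb11, a beta gene, had 0 counts in both EpiLC libraries and 360 and 118 normalised counts at day 6. It was at least 236-fold higher (edgeR adjusted p = 6.5e-05), where the bound sets the EpiLC group at 3 counts. On the same terms Pcdhb20, with 271 and 83.4 normalised counts at day 6, was at least 176-fold higher (edgeR adjusted p = 8.3e-06) and Pcdhb18, with 269 and 66.0, at least 171-fold higher (edgeR adjusted p = 3.6e-05). Pcdhb11, Pcdhb20 and Pcdhb18 were among the 26 and were named for their high fold changes. Their bounds and p-values therefore give no support to a difference either. Pcdhb22, the beta gene of highest level over all libraries, had 4.82 and 0.556 in EpiLCs and 430.2 and 224 at day 6. Its log2 fold change was 7.40 (SE 0.98, edgeR adjusted p = 1.1e-05). Every day 6 value of these beta genes was far above both EpiLC values.

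In bulk RNA the beta counts of day 6 were spread over the cluster and not held by a few genes. How many of these genes a single cell used cannot be told from bulk RNA. All 22 beta genes had counts in both day 6 libraries, and 22 and 20 of them had 10 or more. The leading gene held 11.4% of the beta counts in replicate 1 (Pcdhb16) and 14.8% in replicate 2 (Pcdhb22). Pcdhb1, the first gene of the cluster, was the low exception, with 4.53 and 3.47 normalised counts at day 6, and it was not tested. Wild-type EpiLCs had 12 beta counts in each library, spread over 4 and 8 genes, and replicate 2 of the TKO EpiLCs had 0.

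Among alpha genes other than the C type, Pcdha12 was the one of highest level over all libraries. It had 0 and 0.556 normalised counts in EpiLCs, 15.6 and 6.99 at day 2 and 92.9 and 35.9 at day 6. From 1 count in EpiLCs to 236 at day 6 it was 186-fold higher, with a 95% counting interval of 33.1 to 7384 (log2 fold change 6.97, SE 0.998, edgeR adjusted p = 3.2e-05). Pcdha12 was among the 26 genes that passed the filter solely through the day 6 libraries, so this p-value gives no support to a difference. The C-type alpha genes moved differently. Pcdhac2, the last alpha gene, had 3.21 and 10.01 in EpiLCs and 15.4 and 12.7 at day 6, a log2 fold change of 0.93 (SE 0.92, edgeR adjusted p = 0.398). Its day 6 values were above both EpiLC values, but by less than the spread allowed for. Pcdhac1 had 23.1 and 2.32 normalised counts at day 6 and 1.61 and 0 in EpiLCs, and it was not tested.

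Genes of the gamma cluster were already expressed in EpiLCs, and 20 of 22 rose. Pcdhgc3, a C-type gene, had 61.0 and 87.3 normalised counts in EpiLCs, 883 and 531 at day 2 and 1039 and 963 at day 6. Its log2 fold change at day 6 was 3.72 (SE 0.31, edgeR adjusted p = 1.1e-07). The neighbouring Pcdhgc4 had 3.21 and 3.34 in EpiLCs, 75.1 and 42.0 at day 2 and 84.8 and 68.3 at day 6, with a log2 fold change of 4.49 (SE 0.51, edgeR adjusted p = 2.5e-06). The gamma A sum was 783 and 521 at day 2 and 2245 and 902 at day 6. The gamma B sum was 335 and 204 at day 2 and 976 and 413 at day 6. The gamma C sum was 1000.1 and 603 at day 2 and 1168 and 1053 at day 6. None of these sums overlapped between the days, but 7 of the 19 A-type and B-type genes did. The step from day 2 to day 6 was not tested.

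Pcdhga1 and Pcdhgc5, the first and the last gene of the gamma cluster in locus order, did not pass the test. Pcdhga1 had 48.2 and 50.6 normalised counts in EpiLCs and 79.3 and 38.2 at day 6, so that the EpiLC libraries lay between those of day 6. Pcdhgc5 had 17.7 and 32.2 in EpiLCs and 44.4 and 20.8 at day 6, and these groups overlapped too. The log2 fold changes were 0.28 for Pcdhga1 (SE 0.43, edgeR adjusted p = 0.597) and 0.37 for Pcdhgc5 (SE 0.50, edgeR adjusted p = 0.543), and both turned negative without replicate 1 of the day 6 group, at −0.37 and −0.32. Inside the cluster the A-type gene of highest level, Pcdhga2, rose by 3.35 (SE 0.52, edgeR adjusted p = 5.3e-05), from 16.1 and 25.01 in EpiLCs to 324 and 111. Pcdhgb4, the B-type gene of highest level, rose by 5.58 (SE 0.60, edgeR adjusted p = 1.3e-06), from 1.61 and 3.34 to 173 and 105. The smallest called rises were those of Pcdhga8 at 1.92 (SE 0.58), Pcdhga12 at 2.22 (SE 0.46) and Pcdhgb5 at 2.58 (SE 0.61), all on the log2 scale. Pcdhga8 was not called without replicate 1 of the EpiLCs, without replicate 1 of day 6 or in a model of the 4 libraries compared.

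**Figure D2:**
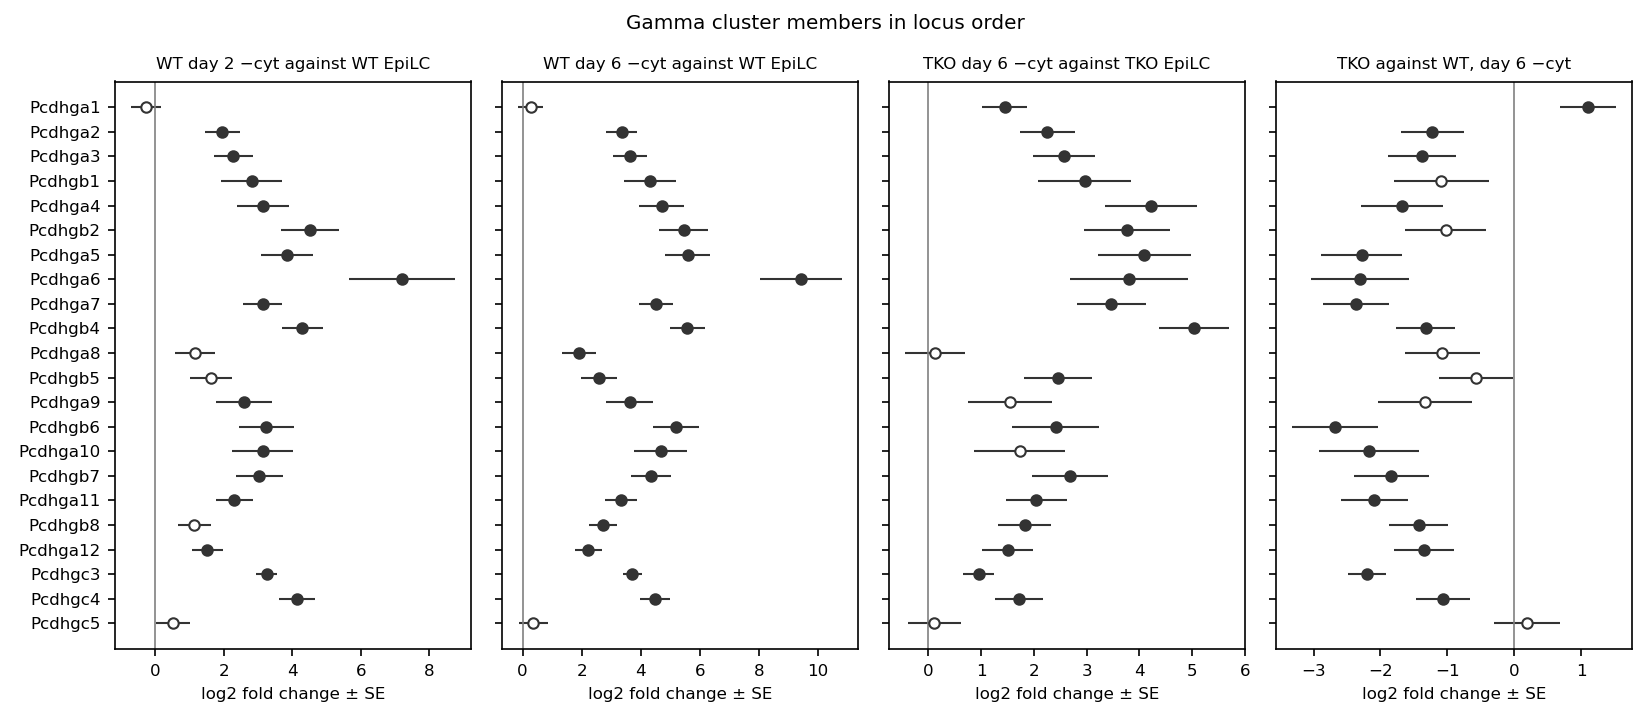
Log2 fold change of each gamma gene, from the first (top) to the last gene of the cluster, in 4 comparisons of groups without cytokines (−cyt), with lines of 1 standard error on each side. Filled points have an adjusted p below 0.05 and open points do not, and the horizontal scales differ between panels. Pcdhga1 and Pcdhgc5 stand near 0 in the panels of wild-type (WT) cells, and Pcdhga1 is the only gamma gene called higher in TKO than in wild-type aggregates at day 6.

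Levels of different genes were compared per kb of exon that no other gene shares, with lengths from the GENCODE annotation of mm10, which need not equal those the authors counted on. In day 6 wild-type aggregates without cytokines Pcdhgc3 had 296 ± 15.8 normalised counts per kb (SD, n = 2), followed by Pcdhga2 with 84.6 ± 58.5 (SD, n = 2). The gap between these genes was larger than the spread of either. The next were Pcdhga4 with 83.6 ± 57.7 and Pcdhb17 with 73.9 ± 59.2 (SD, n = 2), which did not differ from Pcdhga2 beyond that spread. Medians over genes were 38.5 normalised counts per kb for gamma, 30.7 for beta and 6.91 for alpha. Pcdhgc3 was the leading gamma gene in all 18 libraries, with 16.8% to 41.7% of the gamma counts.

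The day 6 wild-type libraries without cytokines differed from each other more than the replicates of any other group. Across all genes, the spread between them was 169.9 times that of counting noise, against 11.2 to 61.1 times in the other groups. Replicate 1 was above replicate 2 in 22 of 22 beta genes, 22 of 22 gamma genes and 12 of 14 alpha genes, the other alpha genes being at 0 counts in both. The summed level of replicate 1 was 3.14 times that of replicate 2 for beta, 3.29 times for alpha and 1.85 times for gamma. Pcdhgc3 was nearly equal in both, at 1039 and 963. Neuron markers (Tubb3, Elavl3, Elavl4, Dcx, Stmn2, Map2, Snap25 and Syt1) summed to 51028 and 33712 normalised counts in these libraries, where all 8 were detected, and to 1011 to 6039 in the 16 others, where Snap25 was at 0 in the TKO libraries with cytokines. Neural progenitor markers (Sox1, Sox3, Pax6, Nes and Hes5) summed to 20554 and 25890 in them, to 9217 and 7914 in day 2 wild-type aggregates without cytokines and to 290 to 2317 elsewhere. From replicate 1 to replicate 2 the ratio of the sums was 1.51 for neuron and 0.794 for neural progenitor markers. Single neuron markers varied around the ratio of their sum. Tubb3 had 17308 and 18374 normalised counts, Stmn2 5518 and 3848, Elavl3 3896 and 2329 and Map2 10636 and 5203. Dcx had 9404 and 2530, Elavl4 3114 and 1021, Syt1 675 and 229 and Snap25 477 and 177. The group with the highest protocadherin levels thus also had the highest levels of both marker lists, and their part in the protocadherin results was not tested.

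**Figure D3:**
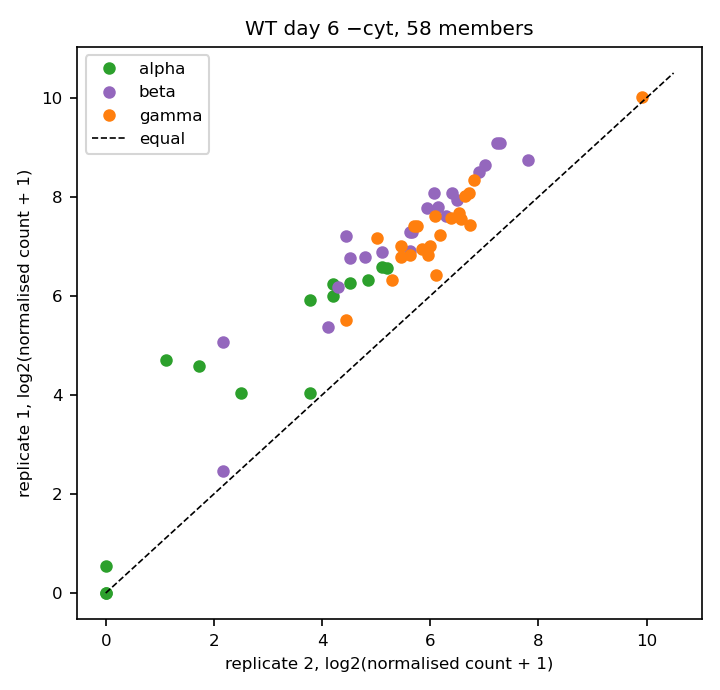
Normalised counts of the 58 clustered protocadherins in the 2 day 6 wild-type (WT) libraries without cytokines (−cyt), as log2 of the count plus 1, with replicate 2 on the horizontal and replicate 1 on the vertical axis. Points are genes coloured by cluster and the dashed line marks equal levels. All points with counts lie above the line, and Pcdhgc3, the gamma point with 1039 and 963 normalised counts, lies next to it.

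At day 2 without cytokines most of the genes called were gamma genes. The mean sums rose 3.60-fold for alpha, 5.34-fold for beta and 5.18-fold for gamma. Most alpha and beta genes had few counts in these groups, so that small rises of single genes were not detectable. Of the genes tested, 26 had passed the filter solely through day 6 wild-type libraries. Compared with wild-type EpiLCs, 22 of the 58 genes were higher and 0 lower, 17 gamma, 3 beta and 2 alpha genes, against 18.6% of all genes tested higher and 15.7% lower. Pcdhgc3 rose by 3.26 on the log2 scale (SE 0.30, edgeR adjusted p = 2.6e-06) and Pcdhgc4 by 4.14 (SE 0.51, edgeR adjusted p = 3.1e-05), from the values given above. Pcdhga6, an A-type gene, had 0 counts in both EpiLC libraries and 26.3 and 7.77 normalised counts at day 2, which was at least 12.9-fold higher (edgeR adjusted p = 0.0028). The called alpha genes were Pcdha10 and Pcdha12, and the called beta genes Pcdhb2, Pcdhb20 and Pcdhb22. Pcdha10 had 0 counts in EpiLCs and 9.75 and 5.44 normalised counts at day 2, at least 5.93-fold higher (edgeR adjusted p = 0.022). Pcdhb22, with 22.4 and 21.0 at day 2, rose by 3.53 (SE 1.01, edgeR adjusted p = 0.014). The number called was 8 without replicate 2 of the EpiLCs, the deepest library of the series, 14 without replicate 1 of the EpiLCs and 13 without replicate 1 of day 2.

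Wild-type cells with cytokines had low alpha and beta levels, like EpiLCs. At day 6 the beta sums were 1.39 and 17.4 normalised counts and the alpha sums 0.695 and 6.43, both overlapping with EpiLCs. The gamma sums were 451 and 610, above both EpiLC libraries. Against EpiLCs, 5 of the 58 genes were higher, all gamma, and 0 lower, when 22.4% of all genes tested were higher and 18.2% lower. They were Pcdhgb2, Pcdhgb4, Pcdhgb7, Pcdhgc3 and Pcdhgc4, with log2 fold changes of 2.85, 2.31, 1.91, 0.98 and 1.56 (adjusted p between 0.0082 and 0.042, edgeR). Pcdhgc3, at 133 and 159 normalised counts, was above both EpiLC values. The number called was 0 without replicate 2 of the day 6 cells with cytokines and 2 and 3 without replicate 1 and replicate 2 of the EpiLCs.

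Set against day 6 wild-type aggregates without cytokines, the same cells had 49 of the 58 genes lower and 0 higher, when 28.6% of all genes tested were lower and 29.6% higher. Those lower were 8 alpha, 20 beta and 21 gamma genes, and the libraries did not overlap for any of them. Here too the 26 genes that passed the filter solely through the group without cytokines are among those tested. Pcdhb16 had 0 counts with cytokines and 543 and 155 normalised counts without, and it was at least 433-fold lower with cytokines (edgeR adjusted p = 4.1e-06). Pcdhb11 and Pcdhb18, likewise at 0 counts with cytokines, were at least 291-fold and at least 211-fold lower. These genes and Pcdhb16 are among those 26, so their bounds and p-values give no support to a difference. The smallest called differences were those of Pcdhgc5 at −1.30 (SE 0.51), Pcdhgb8 at −1.69 (SE 0.43) and Pcdhga12 at −1.92 (SE 0.44), all log2 fold changes. Pcdhac2, with 0 and 3.22 normalised counts with cytokines against 15.4 and 12.7, fell by 2.98 (SE 1.07, edgeR adjusted p = 0.026). With single libraries left out, the log2 fold change ran from −6.89 to −2.07 for Pcdhac2 and from −1.71 to −0.63 for Pcdhgc5. Pcdhga1, with 48.7 and 44.4 against 79.3 and 38.2, was the only gene tested that was not called. PGC markers (Prdm1, Prdm14, Tfap2c, Nanos3, Dppa3 and Kit) summed to 15829 and 13315 with cytokines and to 1346 and 617 without, and neuron markers to 1011 and 1105 with cytokines.

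**Figure D4:**
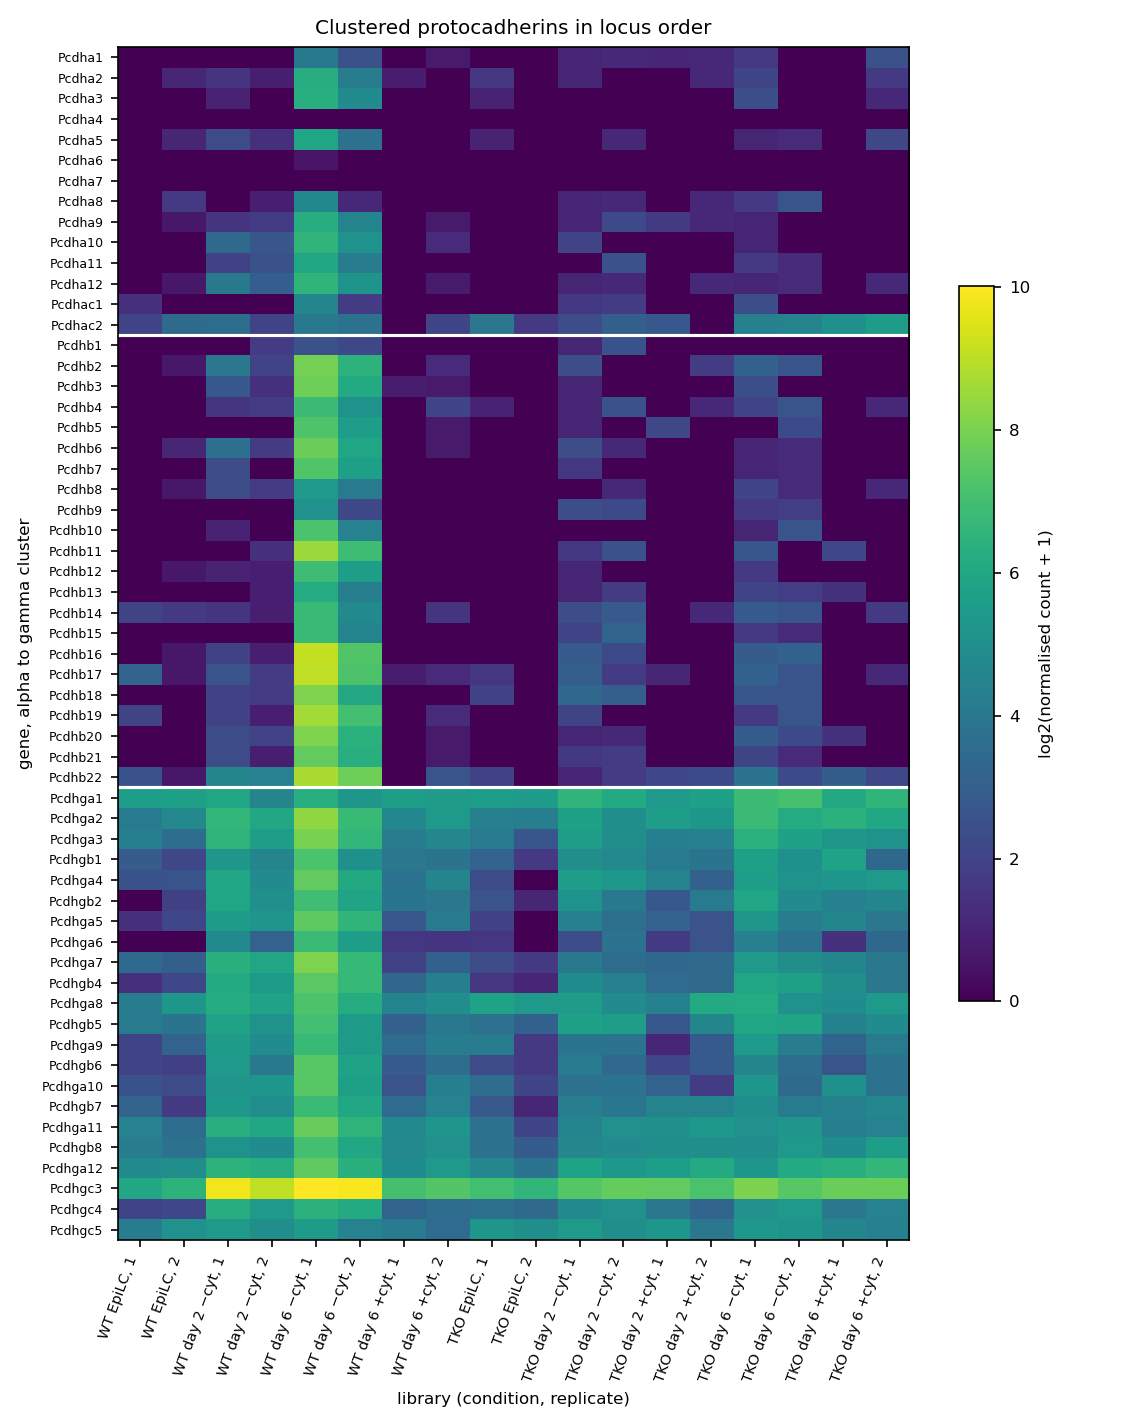
Normalised counts of all 58 clustered protocadherins, as log2 of the count plus 1, in 18 libraries, with genes in locus order from alpha (top) to gamma (bottom) and white lines between the clusters. Columns are libraries of wild-type (WT) and TKO cells with (+cyt) or without (−cyt) cytokines. The day 6 wild-type libraries without cytokines are bright in all clusters, the beta rows are dark elsewhere, and Pcdhgc3 is the brightest gamma row in every column.

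The next question was whether loss of the TET enzymes changes these genes before differentiation. In EpiLCs, 0 of the 58 genes were higher and 0 lower in TKO than in wild type by edgeR, when 7.57% of all genes tested were higher and 3.18% lower. At an unadjusted p below 0.05 there was 1, and DESeq2's Wald test called 0. The shares of all genes at these settings were not determined. Beta sums were 8.93 and 0 normalised counts in TKO EpiLCs and 19.3 and 6.67 in wild-type EpiLCs. Gamma sums were 444 and 292 in TKO and 308 and 357 in wild type, which overlapped. Pcdhgc3 had 125 and 96.8 in TKO EpiLCs, above both wild-type values, with a log2 fold change of 0.57 (SE 0.30, edgeR adjusted p = 0.243).

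At day 2 without cytokines, 5 of the 58 genes were lower in TKO than in wild-type aggregates and 0 higher, when 14.8% of all genes tested were lower and 18% higher. Pcdhgc3 stood out among them, with 167 and 201 normalised counts in TKO against 883 and 531 in wild type. It fell by 1.97 on the log2 scale (SE 0.28, edgeR adjusted p = 0.00011). The A-type genes Pcdhga7, with 15.6 and 10.8 against 81.9 and 58.3, and Pcdhga11, with 21.8 and 32.4 against 79.9 and 62.2, fell by 2.42 (SE 0.53) and 1.42 (SE 0.51). The others were Pcdha12, with 2 counts in TKO and 25 in wild type, 9.71-fold lower (95% counting interval 2.42 to 84.5), and Pcdhb22, with 3 counts against 50, 12.9-fold lower (95% counting interval 4.18 to 64.9). The beta sums were close, 60.2 and 56.5 in TKO against 89.7 and 48.9, and overlapped. Without replicate 1 of the TKO or replicate 2 of the TKO group the number called was 2, Pcdhgc3 and Pcdhga7, and without replicate 1 of the wild-type group it was 3. DESeq2 called 1 gene higher where edgeR called 0, and the share of all genes by DESeq2 was not determined.

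At day 6 without cytokines the genotypes were far apart, in a comparison that shares its wild-type libraries with those against EpiLCs and against cells with cytokines. Of the 58 genes, 42 were lower in TKO than in wild-type aggregates (20 beta, 15 gamma and 7 alpha genes) and 1 was higher, when 26.9% of all genes tested were lower and 28.5% higher. The genes tested again include the 26 that passed the filter solely through these wild-type libraries, so the number lower cannot be weighed against that share. The beta sums were 87.2 and 65.6 normalised counts in TKO against 4747 and 1512 in wild type, and the wild-type mean was 41.0-fold that of TKO. For alpha the sums were 42.0 and 30.3 against 617 and 188, a ratio of 11.1, and for gamma 1327 and 999.5 against 4389 and 2368, a ratio of 2.90. No TKO sum reached the lower wild-type library, and single genes did not overlap between the groups for 41 of the 42, the exception being Pcdhga2. The lowest fold changes were those of the beta genes Pcdhb6 and Pcdhb7 and the alpha gene Pcdha10. Pcdhb6 had 2 counts in TKO and 532 in wild type, 149-fold lower with a 95% counting interval of 41.1 to 1235. Pcdhb7 had 2 counts against 388, 109-fold lower (29.9 to 901), and Pcdha10 had 1 count against 237, 133-fold lower (23.6 to 5271). Pcdhb6, Pcdhb7 and Pcdha10 were among the 26 genes, so these values give no support to a difference either.

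C-type genes were more varied between the genotypes at day 6. Pcdhgc3 had 262 and 168 normalised counts in TKO against 1039 and 963, a fall of 2.20 on the log2 scale (SE 0.28, edgeR adjusted p = 1.3e-05). Pcdhgc4, with 32.3 and 40.4 against 84.8 and 68.3, fell by 1.06 (SE 0.40, edgeR adjusted p = 0.035). The call of Pcdhgc4 was lost without replicate 1 of the wild-type group or either TKO replicate. Its log2 fold change ran from −1.22 to −0.90 over the libraries left out. Pcdhgc5 had 39.8 and 35.3 against 44.4 and 20.8, and Pcdhac2 had 19.4 and 21.5 against 15.4 and 12.7, with a log2 fold change of 0.53 (SE 0.86, edgeR adjusted p = 0.624). Pcdhga1, the first gamma gene, was the gene called higher in TKO, with 117 and 136 against 79.3 and 38.2 and a log2 fold change of 1.10 (SE 0.42, edgeR adjusted p = 0.036). Its call was lost in a model of the 4 libraries compared and without replicate 2 of the wild-type group or either TKO replicate. The number called lower was 29 without replicate 1 of the wild-type group, the library of higher protocadherin levels. Neuron markers summed to 3369 and 4620 in these TKO libraries against 51028 and 33712, and PGC markers to 4798 in each against 1346 and 617, and the part of either in the protocadherin result was not tested.

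**Figure D5:**
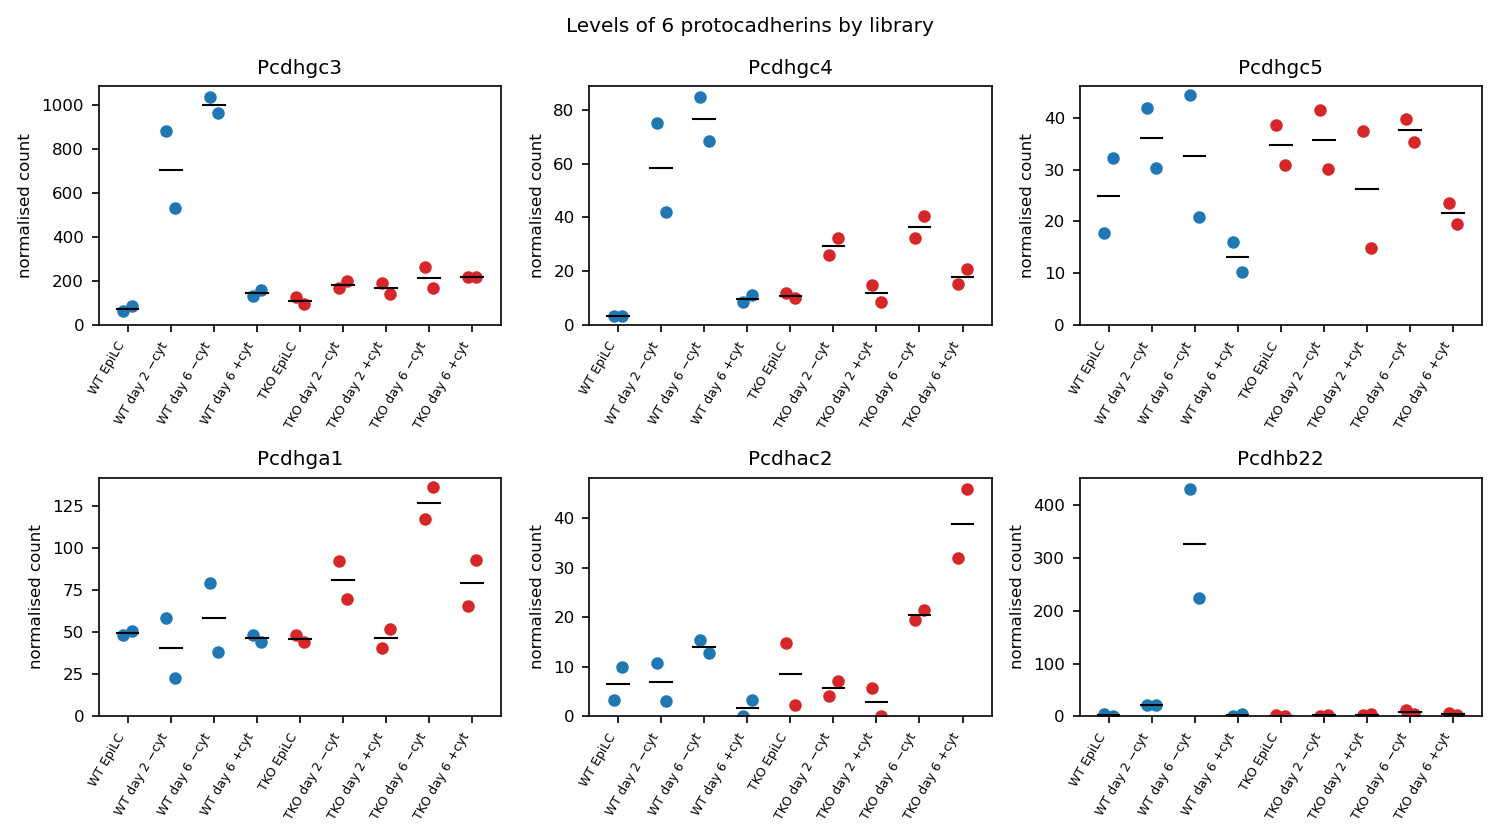
Normalised counts of 6 clustered protocadherins in each of the 18 libraries, for wild-type (WT, blue) and TKO (red) groups with (+cyt) and without (−cyt) cytokines. Points are libraries, bars are group means and the vertical scales differ. Pcdhgc3 and Pcdhgc4 are high in wild-type aggregates without cytokines at both days, Pcdhb22 at day 6, Pcdhga1 is highest in TKO at day 6 without cytokines, and Pcdhac2 is highest in TKO at day 6 with cytokines at 31.9 and 45.9.

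TKO cells still raised gamma genes as they left the EpiLC state. Against TKO EpiLCs, 21 of the 58 genes were higher (18 gamma and 3 beta genes) and 0 lower in day 6 TKO aggregates without cytokines, when 15.7% of all genes tested were higher and 12.3% lower. The gamma sum rose from 444 and 292 normalised counts to 1327 and 999.5, a ratio of means of 3.16. Pcdhgb4 had 1.98 and 1.10 in TKO EpiLCs and 59.2 and 50.5 at day 6. From 3 counts in EpiLCs to 95 it was 35.3-fold higher, with a 95% counting interval of 11.7 to 174 (edgeR adjusted p = 0.00011). Pcdhga1, from 48.6 and 44.0, rose by 1.44 (SE 0.43), and Pcdhgc3, from 125 and 96.8, by 0.95 (SE 0.29). Pcdhb14, Pcdhb16 and Pcdhb20, the beta genes called, had 0 counts in TKO EpiLCs and 10, 12 and 9 counts at day 6, at least 3.71-fold, 4.46-fold and 3.34-fold higher. These beta genes and Pcdhga1 lost their calls whichever library of the compared groups was left out. The number called was 6 without replicate 2 of the TKO EpiLCs, 8 without day 6 replicate 1 and 13 without day 6 replicate 2.

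With cytokines, day 6 TKO aggregates had 11 of the 58 genes higher than TKO EpiLCs, all gamma, and 0 lower, when 14.9% of all genes tested were higher and 10.4% lower. Both day 6 TKO groups share the EpiLC libraries as controls. Pcdhgb4, with 30.2 and 14.9 normalised counts, and Pcdhga4, with 37.0 and 40.2 against 3.97 and 0 in EpiLCs, had the highest of these fold changes, from 3 and 4 counts in EpiLCs. Pcdhga4 rose by 4.16 on the log2 scale (SE 0.88, edgeR adjusted p = 0.0029). Pcdhgc3, with 217 and 219, rose by 0.98 (SE 0.29, edgeR adjusted p = 0.022). The number called was 3 without replicate 2 of the TKO EpiLCs, 5 without day 6 replicate 1 and 7 without day 6 replicate 2.

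No single protocadherin passed the test for cytokines in TKO cells, although the beta sums parted. At day 2, 0 of the 58 genes were higher and 0 lower with than without cytokines, when 2.05% of all genes tested were higher and 2.47% lower. At day 6, 0 were higher and 0 lower, when 2.56% of all genes tested were higher and 3.05% lower. By edgeR 7 genes at day 2 and 5 at day 6 had an unadjusted p below 0.05, and DESeq2 called 1 lower at each day. The shares of all genes at these settings were not determined, so these numbers give no support to a difference. Beta sums at day 2 were 7.93 and 8.69 normalised counts with and 60.2 and 56.5 without cytokines. At day 6 they were 13.4 and 9.18 with and 87.2 and 65.6 without. The ratio of means without to with cytokines was 7.02 at day 2 and 6.76 at day 6 for beta, against 1.35 and 1.33 for gamma. These are sums of 7 to 81 counts per library, and no test was made of a sum.

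The beta sums divided the libraries of both genotypes into those without and those with cytokines. Outside the day 6 wild-type group without cytokines, the wild-type libraries were day 2 aggregates without cytokines and sorted day 6 cells with cytokines. Cytokines, day and sorting cannot be told apart in that wild-type division, while the TKO groups were aggregates of the same days. Outside the day 6 wild-type group, the 6 libraries without cytokines had 47 to 92 beta counts (48.9 to 89.7 normalised), the 6 libraries with cytokines 2 to 27 (1.39 to 17.4 normalised) and the 4 EpiLC libraries 0 to 12. The libraries without cytokines stood above all others, and those with cytokines overlapped with EpiLCs. Alpha genes other than Pcdhac2 had 7 to 38 counts without cytokines outside that group, 0 to 11 with cytokines and 0 to 10 in EpiLCs, which overlapped. The summed neuron markers overlapped, with 2926 to 4620 normalised counts in the 6 without and 1011 to 6039 in the 6 with cytokines, but 3 of the 8 divided these libraries as the beta sums did. Syt1, a synaptic vesicle protein, had 52.8 to 143 without and 0 to 3.36 with cytokines, Snap25, also of the synapse, 23.4 to 107 and 0 to 4.50, and Map2, of the neuronal cytoskeleton, 187 to 464 and 62.4 to 111. In TKO cells 4 of the 8 were lower and 0 higher with cytokines at day 2, beside 2.47% and 2.05% of all genes. At day 6 these were 3 and 0, beside 3.05% and 2.56% of all genes. Stmn2 ran the other way without a call, at 1497 and 1537 without and 2229 and 2098 with cytokines in TKO at day 2. In TKO at day 6 it had 1581 and 2125 without and 4351 and 2392 with cytokines. Markers of other cell types also divided the 6 libraries without from the 6 with cytokines. Foxa2, of endoderm, had 14.5 to 46.8 without and 0 to 6.72 with cytokines. Fgf5, of EpiLCs, had 317 to 601 without and 10.1 to 308 with cytokines. Otx2, also of EpiLCs, had 663 to 1163 and 308 to 662. The share of ribosomal Rn45s divided the libraries as the beta sums did, at 16.2% to 31.3% in the 6 without and 31.7% to 37.3% in the 6 with cytokines. It was 33.1% to 47.6% in EpiLCs. The part of these markers or of Rn45s in the beta levels was not tested.

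Pcdhac2 differed between the genotypes at day 6 with cytokines. It had 31.9 and 45.9 normalised counts in day 6 TKO aggregates with cytokines and 0 and 3.22 in day 6 wild-type cells with cytokines. It was 1 of 2 genes higher in that comparison, with a log2 fold change of 4.47 (SE 1.06, edgeR adjusted p = 0.0089), when 0 were lower and 11.3% of all genes tested were higher and 7.53% lower. The other was Pcdhga7, with 23.5 and 14.9 against 2.78 and 7.72 and a log2 fold change of 1.81 (SE 0.60, edgeR adjusted p = 0.049). Neither was called without replicate 1 of the wild-type group. The wild-type cells were sorted and the TKO aggregates were not, so that genotype and sorting cannot be told apart here. Endoderm markers summed to 445 and 538 in TKO against 75.1 and 117, with 3 of 4 higher and 0 lower. Neuron markers summed to 6039 and 3263 against 1011 and 1105, with 2 of 8 higher and 0 lower. Their sum rests largely on Stmn2, at 4351 and 2392 against 526 and 665. The TKO values of Elavl3, Elavl4 and Snap25 lay below those of wild type, without a call. PGC markers summed to 4992 and 6896 against 15829 and 13315, with 0 of 6 higher and 4 lower. The part of these markers was not tested. Against TKO EpiLCs, at 14.9 and 2.20, the log2 fold change of Pcdhac2 was 2.17 (SE 0.91, edgeR adjusted p = 0.095). Pcdhac2 was the leading alpha gene in both day 6 TKO groups, with 46.2% to 100% of the alpha counts of a library, as it was in EpiLCs of both genotypes, with 64.3% to 100%.

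Differences between the genotypes' own changes were tested as interactions. From EpiLCs to day 6 without cytokines, 3 of the 58 genes changed by less in TKO than in wild type and 0 by more, when 18.5% of all genes tested were lower and 18.5% higher in that contrast. Of the 22 beta genes, 13 had 0 counts in both wild-type and 18 in both TKO EpiLC libraries, which leaves such differences poorly determined. The beta sum rose 241-fold in wild-type and 17.1-fold in TKO cells, and that of alpha genes other than the C type 135-fold and 6.84-fold. These sums were not tested. Pcdhgc3 rose by 3.72 in wild-type and 0.95 in TKO cells, a difference of −2.77 on the log2 scale (SE 0.41, edgeR adjusted p = 0.00010). Pcdhgc4 rose by 4.49 and 1.71, a difference of −2.78 (SE 0.69, edgeR adjusted p = 0.0052). Pcdhb18 had a difference of −8.81 (SE 2.39, edgeR adjusted p = 0.014), which rests on 0 counts in wild-type EpiLCs, so that its size depends on the prior count of the model. It was not called without replicate 1 of the TKO EpiLCs. The number called was 8 without replicate 2 of day 6 wild-type aggregates, 5 without replicate 1 of the wild-type EpiLCs, replicate 2 of the TKO EpiLCs or replicate 1 of day 6 TKO aggregates, 7 with DESeq2 and 5 without a filter on low counts. Without replicate 1 of day 6 wild-type aggregates, 1 gene was called higher.

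At day 6 the effect of cytokines differed between genotypes for 18 of the 58 genes, 14 gamma, 2 alpha and 2 beta genes, when 21% of all genes tested were higher and 22% lower in that contrast. All 18 differences were positive, a smaller fall or a rise in TKO cells, and 0 were negative. Pcdhgc3 fell by 2.74 with cytokines in wild-type cells, while its TKO values were 217 and 219 with and 262 and 168 without, a difference of 2.77 (SE 0.40, edgeR adjusted p = 6.2e-05). Pcdhga7 gave 4.17 (SE 0.78, edgeR adjusted p = 0.00057), Pcdhac2 3.93 (SE 1.37, edgeR adjusted p = 0.031) and Pcdhb22 6.07 (SE 1.47, edgeR adjusted p = 0.0038). Pcdhb11 with 10.04 and Pcdha5 with 9.03 rest on 0 counts in wild-type cells with cytokines and their size depends on the prior count of the model. They also rest on few TKO counts. Pcdhb11 had 2 and 0 with and 5 and 0 without cytokines, and Pcdha5 0 and 3 with and 1 and 1 without. Without replicate 1 of TKO aggregates with cytokines Pcdhb11 gave 6.32, and without replicate 2 of them Pcdha5 gave 4.85. Neither was called in those fits. The number called was 6 without replicate 1 of wild-type cells with cytokines, 9 without replicate 1 of wild-type aggregates without cytokines, 8 without replicate 2 of TKO aggregates without and 10 without replicate 2 of those with cytokines, and 11 in a model of the 8 libraries compared.

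Protocadherins outside the clusters, which are encoded on several chromosomes, also rose in day 6 wild-type aggregates. Of 11 such genes 10 were tested, and relative to wild-type EpiLCs 9 rose and 1 fell, beside 31.7% and 29% of all genes, with a median log2 fold change of 6.13 against 0.05 over all genes. Pcdh8 had 78.7 and 47.3 normalised counts in EpiLCs and 3423 and 1322 at day 6, and rose by 5.29 (SE 0.44, edgeR adjusted p = 1.2e-07). Pcdh19 had 22.5 and 15.0 in EpiLCs, 230 and 121 at day 2 and 292 and 281 at day 6. It rose by 3.99 at day 6 (SE 0.44, edgeR adjusted p = 1.9e-06). Pcdh1, from 2031 and 1733 to 252 and 33.6, fell by 3.65 (SE 0.54, edgeR adjusted p = 3.4e-05). In TKO against wild-type aggregates at day 6 without cytokines 6 of the 10 were lower and 0 higher, beside 26.9% and 28.5% of all genes, with a median of −2.29 against 0.01 over all genes. In day 6 TKO aggregates without cytokines against TKO EpiLCs 7 were higher and 1 lower, beside 15.7% and 12.3% of all genes.

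Genes beside the clusters on chromosome 18 were counted as well. Of 13 neighbours tested, 1 was higher and 6 lower in day 6 wild-type aggregates without cytokines than in EpiLCs, beside 31.7% and 29% of all genes, with a median log2 fold change of −0.38. Rell2 was higher, at 2.29 (SE 0.71, edgeR adjusted p = 0.011). Taf7, a subunit of transcription factor TFIID whose gene lies between the beta and gamma clusters, had 2431 and 2222 normalised counts in EpiLCs and 467 and 527 at day 6, and fell by 2.22 (SE 0.18, edgeR adjusted p = 9.4e-08). Dnd1, a germ cell RNA-binding protein, fell by 3.62, Arap3 by 2.42, Diaph1 by 2.07, Wdr55 by 1.70 and Hars by 0.84. Between TKO and wild-type aggregates at day 6 without cytokines, 4 neighbours were higher and 3 lower, beside 28.5% and 26.9% of all genes.

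Chromatin regulators known from work on these promoters or on DNA methylation were counted next. Of 26 tested, 15 were lower and 4 higher in day 6 wild-type aggregates without cytokines than in EpiLCs, beside 29% and 31.7% of all genes, with a median log2 fold change of −0.60. Rest, a repressor of neuronal genes that binds protocadherin promoters, had 5035 and 4246 normalised counts in EpiLCs, 1956 and 1531 at day 2 without cytokines and 549 and 712 at day 6. In the other day 6 groups it had 7416 and 6676 (wild type with cytokines), 4029 and 4581 (TKO without) and 4440 and 4624 (TKO with cytokines). It fell by 2.88 in wild-type aggregates at day 6 (SE 0.19, edgeR adjusted p = 1.4e-08), and every other library lay above those of that group. Dnmt3b, the DNA methyltransferase that methylates stochastic protocadherin promoters, fell by 7.24 (SE 0.35, edgeR adjusted p = 1.1e-09), from 42663 and 48315 to 267 and 337. Day 6 wild-type cells with cytokines, with low protocadherins, had 437 and 494. Ctcf fell by 0.63 (SE 0.14, edgeR adjusted p = 0.00097), while Smchd1, which helps to keep the clusters silent, had 1831 and 2165 against 1795 and 1548 and was not called. Between TKO and wild-type aggregates at day 6 without cytokines, 11 of the 26 were higher and 4 lower, beside 28.5% and 26.9% of all genes. The list holds the Tet genes, deleted in TKO cells, and Tet2 and Tet3 were among those lower. Rest was higher by 2.79 (SE 0.19, edgeR adjusted p = 2e-08). Whether any of these levels bears on the protocadherins was not tested.

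Cytoplasmic partners of the clustered protocadherins and enzymes that cut them were counted as the last list. Of 14 genes tested, 8 were higher and 1 lower in day 6 wild-type aggregates without cytokines than in EpiLCs, beside 31.7% and 29% of all genes, with a median log2 fold change of 0.51. Adam10, a protease that sheds the extracellular part, rose by 2.83 (SE 0.21, edgeR adjusted p = 4.3e-08). Of the focal adhesion kinases that the constant alpha and gamma domains inhibit, Ptk2 rose by 0.89 (SE 0.17, edgeR adjusted p = 0.00032) and Ptk2b fell by 4.69 (SE 0.32, edgeR adjusted p = 2e-08). Between TKO and wild-type aggregates at day 6 without cytokines, 2 of the 14 were higher and 5 lower, beside 28.5% and 26.9% of all genes, with Ptk2b higher by 5.48 (SE 0.33, edgeR adjusted p = 6e-09).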

How the data were processed

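Counts per gene for 18 libraries of rRNA-depleted RNA were deposited by the authors as a single table, which held no columns of their own comparisons. The submitters' notes and the study's methods name TrimGalore 0.5.0, cutadapt 1.16, STAR 2.7.1a and featureCounts of Subread 1.5.2 on mm10 refGene exons. Strand was not used in counting, although the library kit marks it, and fragments that met several genes or places were left out. For the table, 33 text lines that held no gene were removed, which left 25239 genes. Groups came from the labels.

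Normalised counts were computed with DESeq2 1.42.0 size factors. Tests used edgeR 4.0.16 in R 4.3.3 (filterByExpr by group, TMM factors, quasi-likelihood test) in 1 model of 9 group means, with Benjamini-Hochberg adjustment over 16582 genes. Calls had an adjusted p below 0.05. The fit was tested on simulated data. Standard errors were taken as |log2 fold change|/√F. There were 14 comparisons. Against a group at 0 counts, a fold is a lower bound at a floor of 3 counts over the group. Where a group had 1 to 3 counts, the ratio has an exact 95% interval. Bounds and intervals cover counting error only. Alternatives were other scalings, filters and thresholds, DESeq2's test, a fit to the compared libraries, a replicate block and leaving out each library.

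The members and all gene lists were chosen with earlier results of these data known. Named genes were the C-type genes, Pcdhb1, the gene of highest summed level in alpha, beta, gamma A and gamma B, the 3 highest and 3 lowest fold changes among called genes without overlap in each comparison, called list genes and the Tet genes. Genes named as an exception, as first or last in a range, or in counts of 5 or fewer, and Pcdhga7 and Smchd1, were chosen after their values were seen. Sequences of the genes are not reported here.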

Additional observations from a re-analysis of the deposited data

Results flagged for a closer look

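The change from EpiLCs to day 6 without cytokines differed between wild-type and TKO cells, by the test of that difference, for 3 genes with a smaller rise in TKO. The differences on the log2 scale were −2.77 for Pcdhgc3, −2.78 for Pcdhgc4 and −8.81 for Pcdhb18. That of Pcdhb18 rests on 0 counts in wild-type EpiLCs. Most beta genes had 0 counts in the EpiLCs of both genotypes, so their differences were poorly determined.

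The effect of cytokines at day 6 differed between the genotypes for 18 genes, each with a smaller fall or a rise in TKO. Differences on the log2 scale were highest for Pcdhb11 at 10.04, Pcdha5 at 9.03 and Pcdhb22 at 6.07, and the lowest among those called were Pcdhgb4 at 1.98, Pcdhgc4 at 1.95 and Pcdhgb8 at 1.82. Those of Pcdhb11 and Pcdha5 rest on 0 counts in wild-type cells with cytokines and on few counts in TKO cells. Sorted cells enter this contrast in the wild type alone.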

How the results depend on the processing

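Numbers of genes called kept within 1.5 times of the reported ones in 316 of 380 recalculations, and of the single fold changes 881 kept their direction and their side of the threshold, 141 kept their direction alone and 2 turned. With a mean of at least 1 CPM, 30 genes were higher at day 6 than in wild-type EpiLCs without cytokines, 31 lower with than without cytokines in wild-type cells at day 6 and 25 lower in TKO than in wild type at day 6, since fewer genes were tested. At an adjusted p below 0.01 the numbers were 14 for wild-type day 2, 1 for wild-type day 6 with cytokines, 2 lower in TKO at day 2, 0 higher at day 6 without and 1 with cytokines, 7 and 3 for TKO at day 6 without and with cytokines against EpiLCs, and 4 for the genotype-by-cytokine difference. With a log2 limit of 2 they were 2 for wild-type day 6 with cytokines against EpiLCs, 3 lower in TKO at day 2, and 0 and 1 higher in TKO at day 6 without and with cytokines.

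Scaling by library size alone moved the median log2 fold change of all genes the most in wild-type day 6 without cytokines against EpiLCs, from 0.05 with TMM to 0.73. It gave 9 genes higher in wild-type day 6 with cytokines than in EpiLCs, 1 higher in TKO in EpiLCs, at day 2 and at day 6 with cytokines, and 4 and 3 lower with cytokines in TKO at day 2 and day 6. The split of all genes called went from 5260 higher and 4804 lower to 7934 and 2590 for wild-type day 6 against EpiLCs, and from 425 and 506 to 109 and 3138 for cytokines in TKO at day 6. The mean sums became 48.0 for alpha in TKO day 6 without cytokines, 75.1 and 101 for beta in TKO day 2 and day 6 without cytokines, and for gamma 242 in wild-type EpiLCs, 1046 and 1543 in TKO day 2 and day 6 without and 575 and 815 with cytokines. With TMM the latter were 621 and 907. The ratio of alpha sums in TKO at day 6 without to with cytokines was 0.799, and 1.13 by library size alone.

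Without a filter, 1 gene was higher in TKO at day 2, 2 and 1 were lower with cytokines in TKO at day 2 and day 6, and 5 had a smaller rise in TKO. By DESeq2 these numbers were 1, 1, 1 and 7. In fits to the libraries compared, 8 were lower in TKO at day 2, 0 higher in TKO at day 6, 1 lower with cytokines in TKO at day 2 and 11 differed in their response to cytokines. The cause of these changes was not tested.

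Leaving out each library in turn gave 8 to 22 genes for wild-type day 2, 0 to 5 for wild-type day 6 with cytokines against EpiLCs, 2 to 5 lower and 0 to 1 higher in TKO at day 2, 29 to 45 lower and 0 to 1 higher in TKO at day 6 without and 0 to 2 higher with cytokines, 6 to 17 and 3 to 11 for TKO at day 6 without and with cytokines against EpiLCs, 2 to 8 with a smaller and 0 to 1 with a larger rise in TKO, and 6 to 25 for the genotype-by-cytokine difference. A lone remaining library was taken to vary like the other groups. Without replicate 1 of wild-type day 6 without cytokines the log2 fold changes of Pcdhga1 and Pcdhgc5 from EpiLCs to day 6 turned negative, and the ranges over the libraries left out were −0.37 to 0.68 and −0.32 to 0.94.

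Replicate numbers did not pair the samples: over 36 pairs of groups, same-numbered deviations correlated between −0.158 and 0.184, and 7 were above 0.1. With the replicate block 47, 23 and 6 genes were higher in wild-type day 6 without cytokines, day 2 and day 6 with cytokines against EpiLCs, and no number of genes called moved by over 1.5 times. Alpha and beta levels outside day 6 wild-type aggregates rest on few counts, so that small differences there were not detectable at this depth.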
